A study of Mus musculus with 6 samples.

Results

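The integrated stress response is a programme in which cells slow protein synthesis and switch on a small set of stress genes, and 10 of its transcripts were followed in mouse fetal liver erythroblasts labelled Tfam KO or Tfam WT. They were the transcription factor genes Atf4, Atf5, Atf3, Ddit3 and Cebpb, the kinase gene Eif2ak1, and the downstream targets Trib3, Asns, Chac1 and Ppp1r15a. Each was found by its gene symbol, on a single row of a table in which 23094 rows name a gene. The cells came from C57BL/6 fetal liver at embryonic day 13.5 and were sorted for both CD71, the receptor that brings in transferrin iron, and Ter119, a surface marker of the red cell lineage. RNA from them gave 6 libraries. Of these, 3 are labelled Tfam KO and 3 Tfam WT. Tfam encodes a factor that packages mitochondrial DNA and starts its transcription. The labels give no treatment, litter, sex or Cre driver, and they do not say in which cells the gene was deleted or whether replicates came from separate embryos. The p-values therefore measure the spread between these libraries, which may be technical.

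In this response a kinase phosphorylates the translation initiation factor eIF2. Most protein synthesis then slows, while a few mRNAs, Atf4 and Atf5 among them, are translated better because of short reading frames ahead of their coding sequence. ATF4 and its partners switch on genes for amino acid supply, for redox defence and for the recovery of translation. The kinase of red cell precursors, HRI, is encoded by Eif2ak1, is held in check by heme, and is also known to act when mitochondria are disturbed. Much of the control is on translation, which RNA levels do not show.

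Values are RPKM, read counts scaled to transcript length and to the number of mapped reads. Sums of all named rows were 423618 to 535013 RPKM in the Tfam KO libraries, against 461163, 422534 and 814665 RPKM in Tfam WT replicates 1, 2 and 3. Log2 values of Tfam WT replicate 3 correlated with those of the other libraries at 0.930 to 0.962 across genes. The same library held more of short transcripts. With transcripts split by length into 5 classes of equal size, its log2 values lay above the average library by a median of 0.65 in the shortest class and differed by -0.52 in the longest. Results are therefore given with it and without it. Tfam was at 5.92, 7.22 and 6.25 RPKM in Tfam KO libraries, against 7.22, 8.44 and 5.72 RPKM in Tfam WT libraries, so these overlapping levels do not check the labels, and no source used here says which exons were deleted. The erythroid markers were high in every library, summing over 10 rows to 10253 to 13690 RPKM in Tfam KO and 10399 to 15485 RPKM in Tfam WT. Of these markers Epor, the erythropoietin receptor, was separate between groups, at 112, 97.7 and 128 RPKM in Tfam KO and 219.6, 215 and 389 RPKM in Tfam WT. Its log2 fold change was -1.23 (limma adjusted p = 0.909), and -0.95 without Tfam WT replicate 3. Thus 1 of the 10 markers was separate with Tfam KO lower, against 2.36% of all tested rows. Separate with Tfam KO higher were 0, against 2.18%.

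Atf5 and Trib3 stood apart from the other members. Both were higher in every Tfam KO library than in any Tfam WT library, by 2.39 and 2.57 times in the ratio of group means. In bulk RNA, fewer cells of a type and less RNA per cell cannot be told apart, and this holds for every value given here. Neither passed the test across all genes, and the groups of the other members overlapped. Atf4, Ddit3, Ppp1r15a, Asns and Eif2ak1, which are abundant in these cells, had log2 fold changes of -0.45 to -0.06, with intervals that spanned 0. Asns and Eif2ak1 turned positive when libraries were scaled in 2 other ways. With 1 of these, scaling to the RPKM sum without globins, the median of all tested rows also moved, to 0.17. There Eif2ak1 was at 0.17 and Asns at 0.11. Cebpb and Chac1 had positive values that were larger without Tfam WT replicate 3, and that of Chac1 was negative without Tfam KO replicate 3. The test was limma on log2(RPKM + 1) over the 8302 rows with a mean of at least 1 RPKM, with Benjamini-Hochberg adjustment. It called 0 rows at an adjusted p of 0.05, and its lowest adjusted p was 0.909. Weighting libraries by their estimated quality called 60 rows, among them Atf5, Trib3 and Cebpb, but gave Tfam WT replicate 1 a weight of 21.45 and did not converge. Atf3 lay below the filter, so 9 members were tested. Of these, 4 had a log2 fold change above 0, as had 47.0% of all tested rows, and 5 one below 0. At an unadjusted p under 0.05, 2 of the 9 were higher in Tfam KO, where 0.747% of all tested rows were, and 0 were lower, where 0.458% were. In 2 of the 9 the groups did not overlap with Tfam KO higher, against 2.18% of all tested rows, and in 0 with Tfam KO lower, against 2.36%. Since the members were chosen with results of these data known, nothing is read from these shares. The median log2 fold change of the 9 was -0.06, beside -0.02 for all tested rows, and 0.10 beside -0.01 without Tfam WT replicate 3.

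**Figure D1:**
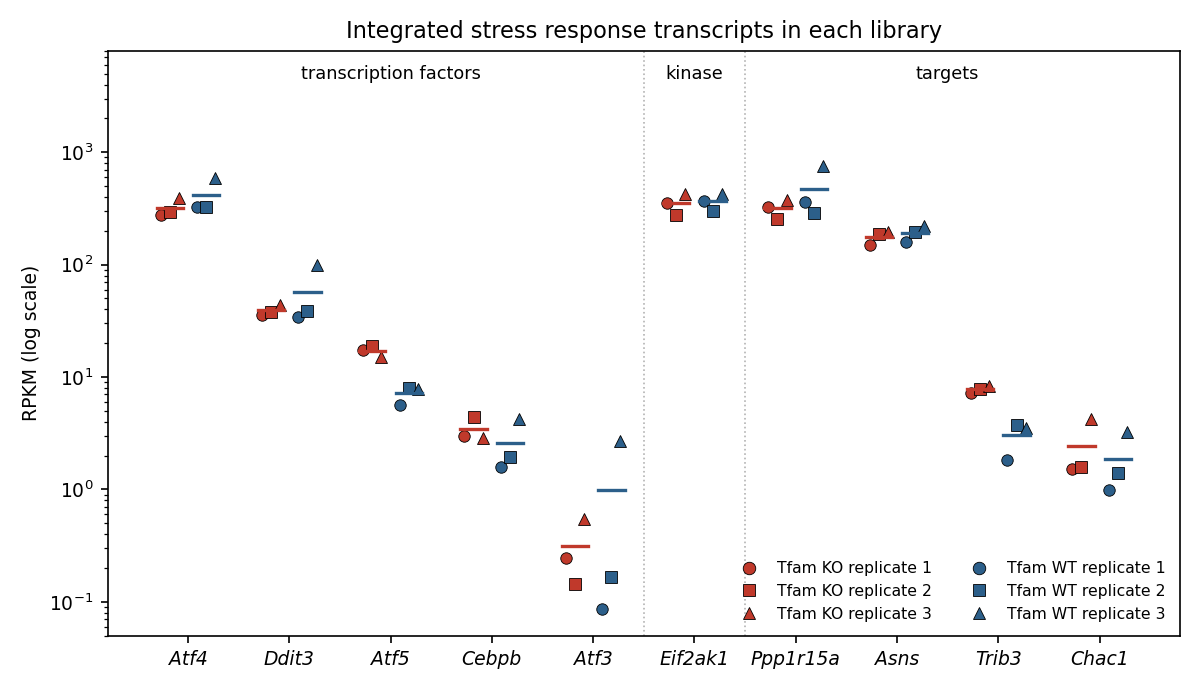
RPKM of the 10 integrated stress response transcripts on a log axis, with Tfam KO left of Tfam WT for each gene; each marker is a library and each bar the mean of 3 libraries. The groups are separate for Atf5 and Trib3, and Tfam WT replicate 3 stands highest for Atf4, Ddit3, Atf3, Ppp1r15a and Asns.

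The levels of the members spanned more than 3 orders of magnitude. Per transcript length, Eif2ak1 (352 ± 74.2 RPKM), Atf4 (322 ± 63.0) and Ppp1r15a (318 ± 61.5) led in the Tfam KO libraries (SD, n = 3). Their means did not differ beyond the spread between libraries, although Eif2ak1 was above Ppp1r15a within each Tfam KO library. Asns came next at 177 ± 24.5 RPKM, followed by Ddit3 at 39.3 ± 4.42, Atf5 at 17.1 ± 1.78 and Trib3 at 7.80 ± 0.576 RPKM. Cebpb (3.43 ± 0.877 RPKM) and Chac1 (2.45 ± 1.57 RPKM) overlapped, and Atf3 was lowest at 0.314 ± 0.212 RPKM. In the Tfam WT libraries the same 3 genes led in another order, Ppp1r15a at 468 ± 253, Atf4 at 414 ± 154 and Eif2ak1 at 366 ± 63.7 RPKM, again within their spread. Below them stood Asns at 193 ± 31.5, Ddit3 at 57.4 ± 36.2 and Atf5 at 7.16 ± 1.29 RPKM, and Atf3 was again lowest at 0.983 ± 1.48 RPKM. There Trib3, Cebpb and Chac1 lay within their spread of each other, at 3.04 ± 1.04, 2.58 ± 1.43 and 1.87 ± 1.19 RPKM. Within each Tfam WT library, however, Trib3 and Cebpb were above Chac1. The mean of Atf4 over all libraries exceeded that of 97.2% of tested rows, and that of Atf5 exceeded 53.6%.

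Atf4 encodes the central transcription factor of the response. It was at 276, 296 and 393 RPKM in Tfam KO replicates 1, 2 and 3, against 324, 326 and 591 RPKM in Tfam WT replicates 1, 2 and 3. The groups overlapped, and the highest value of each was in its replicate 3. The log2 fold change was -0.32 (SE 0.31, 95% interval -1.06 to 0.42, limma adjusted p = 0.909). Without Tfam WT replicate 3 it was -0.03, with an interval of -0.51 to 0.45, so changes within that interval could not be told from none.

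Atf5, a relative of Atf4 whose mRNA is subject to the same kind of translational control, was at 17.5, 18.7 and 15.2 RPKM in the Tfam KO libraries. In the Tfam WT libraries it was at 5.68, 7.97 and 7.84 RPKM. The lowest Tfam KO value was thus 15.2 and the highest Tfam WT value 7.97 RPKM, and replicate 3 was not the highest library of either group. The log2 fold change was 1.16 (SE 0.17, 95% interval 0.75 to 1.57). By unadjusted p (0.000261) it ranked 1 among the 8302 rows, yet the adjusted p was 0.909. Leaving out Tfam WT replicate 3 gave 1.22 (SE 0.16, limma adjusted p = 0.385), and removing trends with transcript length and GC content gave 1.41 (SE 0.22). In the annotation the span of Atf5 overlaps Nup62, a nuclear pore gene, and Il4i1b, and no strand setting is given, so reads of overlapping genes could be mixed. The row that joins Nup62 with Il4i1 was at 32.1, 31.5 and 38.0 RPKM in Tfam KO and 32.4, 30.3 and 40.6 RPKM in Tfam WT, with a log2 fold change of -0.02. Hepatocyte markers, 8 rows with none at 0 in all libraries, summed to 13.3 to 124 RPKM in Tfam KO and 38.6 to 78.7 RPKM in Tfam WT. In Tfam KO replicates 1, 2 and 3 the sums were 72.6, 124 and 13.3 RPKM, and Atf5 had the same rank order. Tfam KO replicate 3 thus had the lowest hepatocyte sum of the 6 libraries and the lowest Atf5 of its group, 15.2 RPKM. In Tfam WT the order differed, as replicate 1 had the highest sum (78.7 RPKM) and the lowest Atf5 (5.68 RPKM). The part of hepatocytes in the Atf5 values was not tested.

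Ddit3 encodes CHOP, a transcription factor induced by ATF4 that can promote cell death. Its level was 35.5, 38.3 and 44.2 RPKM in Tfam KO libraries, against 34.4, 38.7 and 99.0 RPKM in Tfam WT libraries. Apart from the 99.0 RPKM of Tfam WT replicate 3, the 5 libraries lay within 34.4 to 44.2 RPKM. The log2 fold change was -0.37 (SE 0.39) with all libraries and 0.10 (SE 0.15) without that one. Its span overlaps Mars1, which the table names Mars, and this tRNA synthetase gene was at 57.8 RPKM in Tfam WT replicate 3, within the 50.8 to 59.95 RPKM of the other libraries. Mbd6, the other overlapping gene, was at 17.5 to 21.2 RPKM in Tfam KO and 11.1 to 20.3 RPKM in Tfam WT, lowest in Tfam WT replicate 3.

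Cebpb encodes C/EBP beta, a bZIP factor that can pair with ATF4 and is also abundant in myeloid cells and hepatocytes. It was at 2.98, 4.44 and 2.86 RPKM in Tfam KO libraries, against 1.57, 1.96 and 4.22 RPKM in Tfam WT libraries. Only Tfam WT replicate 3 reached into the Tfam KO range. The log2 fold change was 0.36 (SE 0.29, limma adjusted p = 0.909). Without Tfam WT replicate 3 it was 0.67 (SE 0.18, unadjusted p = 0.00737, limma adjusted p = 1), but without Tfam WT replicate 1 it was 0.16 and without Tfam KO replicate 2 it was 0.20. In that smaller comparison 3 of 9 members had an unadjusted p under 0.05 and were higher in Tfam KO, as were 1.51% of tested rows, and 0 were lower, against 0.699%. At an adjusted p of 0.05 it called 0 members and 0.0120% of rows, a single small nucleolar RNA gene (Snord67). Neutrophil markers (6 rows) summed to 25.7 to 64.3 RPKM in Tfam KO and 36.1 to 154 RPKM in Tfam WT, with the highest sum in Tfam WT replicate 3. Macrophage markers (12 rows) summed to 8.81 to 18.2 RPKM in Tfam KO and 17.4 to 33.7 RPKM in Tfam WT, also highest in Tfam WT replicate 3. All 7 tested macrophage markers had negative log2 fold changes, with a median of -0.50 beside -0.02 for all tested rows. In 4 of the 7 the groups were separate with Tfam KO lower, against 2.36% of all tested rows. In 0 they were separate with Tfam KO higher, against 2.18%. At an adjusted p of 0.05, 0 of them passed the test, which called 0 rows in all. Cd5l, Marco and Csf1r, all separate, passed the filter through their Tfam WT values, with Tfam KO means of 0.560, 0.730 and 0.848 RPKM. Nothing is therefore read from the shares of these markers. Below the filter, Mrc1 had a higher mean in Tfam KO, and Vcam1, Emr1, Mertk and Spic a lower mean. Tfam KO replicate 2, highest for Cebpb, had the highest sums of both lists within its group. Tfam KO replicate 1, by contrast, had lower sums than Tfam WT replicate 1 (neutrophil 25.7 against 36.1 RPKM, macrophage 11.5 against 17.8 RPKM) and more Cebpb. No marker of these lists was at 0 in all libraries, and their part in the Cebpb values was not tested.

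Atf3, a stress-inducible repressor and activator of the same bZIP family, was near the limit of the data. It was at 0.246, 0.145 and 0.551 RPKM in Tfam KO libraries, against 0.0859, 0.167 and 2.69 RPKM in Tfam WT libraries. The value of Tfam WT replicate 3 was 11.3 times the mean of the other 5 libraries. With a mean of 0.648 RPKM Atf3 was not tested, and the difference of mean log2(RPKM + 1) was -0.36 with all libraries (exact permutation p = 0.9) and 0.21 without Tfam WT replicate 3.

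Eif2ak1, the gene of the heme-regulated kinase, was among the most abundant members in both groups. It was at 350, 279 and 428 RPKM in Tfam KO libraries, against 372, 299 and 426 RPKM in Tfam WT libraries. The groups covered nearly the same range, and libraries with the same number lay close together. The log2 fold change was -0.06 (SE 0.26, 95% interval -0.67 to 0.55) with all libraries and 0.06 without Tfam WT replicate 3. Its span overlaps Aimp2, which was at 35.0, 36.7 and 38.9 RPKM in Tfam KO and 36.6, 34.2 and 64.0 RPKM in Tfam WT, and Ankrd61, which was at 10.7, 14.2 and 5.93 RPKM in Tfam KO and 6.50, 14.2 and 0.441 RPKM in Tfam WT. The other eIF2 kinases were at much lower levels. Eif2ak2, the kinase activated by double-stranded RNA, shares a row with Gm6548 that was at 9.85, 6.50 and 7.21 RPKM in Tfam KO and 9.42, 5.04 and 5.97 RPKM in Tfam WT. Eif2ak3, the kinase of the endoplasmic reticulum, was at 1.44 to 2.17 RPKM in Tfam KO and 0.806 to 2.20 RPKM in Tfam WT. Eif2ak4, the kinase that senses uncharged tRNA, was at 1.21 to 1.91 RPKM in Tfam KO and 1.37 to 1.64 RPKM in Tfam WT.

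The list of other eIF2 kinases, eIF2 and eIF2B subunits, eIF2 phosphatase genes and the OMA1 relay had 19 genes, each with a tested row. Of these 7 had a positive and 12 a negative log2 fold change, where 47.0% of all tested rows were positive. Their median was -0.08 beside -0.02 for all tested rows, and 0 passed the test in either direction. At an unadjusted p under 0.05 there were 0 as well, and in 0 rows the groups did not overlap. Eif2s1, which encodes the phosphorylated subunit eIF2 alpha, was at 50.4, 52.7 and 57.3 RPKM in Tfam KO libraries, against 55.5, 52.3 and 65.2 RPKM in Tfam WT libraries. Its log2 fold change was -0.10 (95% interval -0.49 to 0.28). Oma1, a mitochondrial protease that relays mitochondrial stress to HRI in human cells, was at 1.91, 2.59 and 2.17 RPKM in Tfam KO and 2.81, 2.44 and 2.24 RPKM in Tfam WT.

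Trib3, a pseudokinase gene induced by ATF4 and CHOP whose product restrains ATF4, was the target with separate groups. It was at 7.22, 7.80 and 8.37 RPKM in Tfam KO libraries, against 1.85, 3.75 and 3.52 RPKM in Tfam WT libraries. Every Tfam KO library lay above every Tfam WT library, and Tfam WT replicate 3 was not the highest of its group. The log2 fold change was 1.16 (SE 0.22, 95% interval 0.64 to 1.67), rank 3 of 8302 by unadjusted p (0.00109), with a limma adjusted p of 0.909. Without Tfam WT replicate 3 it was 1.26 (SE 0.21, limma adjusted p = 0.744), and with length and GC trends removed 1.35 (SE 0.21). The annotation places no other gene across Trib3.

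**Figure D2:**
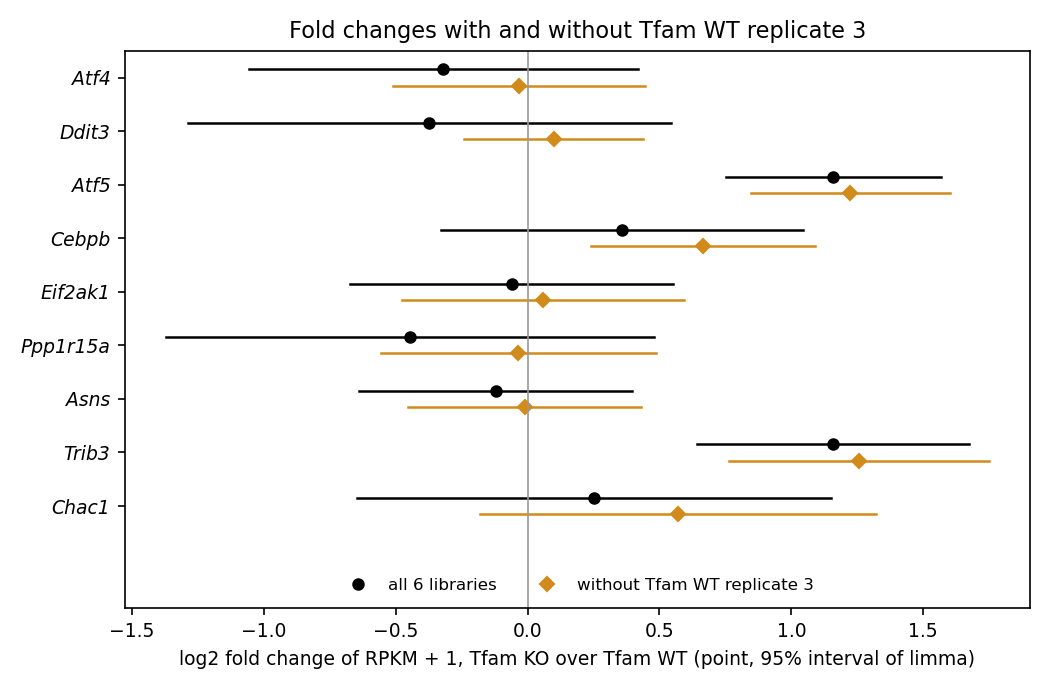
Log2 fold change of RPKM + 1, Tfam KO over Tfam WT, with the 95% interval of limma for the 9 tested members, using all 6 libraries (circles) or leaving out Tfam WT replicate 3 (diamonds). The intervals of Atf5 and Trib3 lie above 0 in both fits, and the values of Ddit3 and Eif2ak1 change sign; none passed an adjusted p of 0.05.

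The other targets overlapped between groups. Asns, which makes asparagine and is a classical ATF4 target, was at 149, 187 and 194 RPKM in Tfam KO libraries, against 160, 196 and 223 RPKM in Tfam WT libraries (log2 fold change -0.12, SE 0.22, and -0.01 without Tfam WT replicate 3). Ppp1r15a encodes GADD34, which directs a phosphatase to eIF2 and so ends the response. It was at 325, 253 and 376 RPKM in Tfam KO libraries, against 361, 286 and 756 RPKM in Tfam WT libraries. Its log2 fold change of -0.45 (SE 0.39) was -0.03 (SE 0.22) without the 756 RPKM of Tfam WT replicate 3. Tulp2, the gene that overlaps it, was at most 0.234 RPKM. Chac1, which degrades glutathione, was at 1.53, 1.57 and 4.27 RPKM in Tfam KO libraries, against 0.981, 1.41 and 3.22 RPKM in Tfam WT libraries. The libraries numbered 3 were highest in both groups, and without Tfam WT replicate 3 each Tfam KO library was above both remaining Tfam WT libraries. With it the log2 fold change was 0.25 (SE 0.38), and without it 0.57 (SE 0.32, unadjusted p = 0.116). Without Tfam KO replicate 3 the value was -0.095. In the comparison without Tfam WT replicate 3, 4 of 9 members were separate and higher in Tfam KO, where 5.42% of all tested rows were, and 0 were separate and lower, where 5.90% were.

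RefSeq start sites allowed the sequence ahead of the members to be read, since ATF4 with a C/EBP partner is known to bind a composite element whose core can be written TGATGNAA. All 10 members matched a window from 250 bases before to 50 bases after an annotated start (GRCm38.p6), 11 windows in all, since Atf5 has 2 starts. TGATGNAA was searched on both strands and found in 4 of the 10, Atf3, Chac1, Trib3 and Asns. Of all 27025 genes with such windows, 4.51% held it, in 3.97% of 32851 windows. The matches are shown with 8 bases on each side and the matched letters in capitals, 5′ to 3′ on the strand of the gene:
Atf3: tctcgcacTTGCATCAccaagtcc
Chac1: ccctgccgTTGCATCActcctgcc
Trib3: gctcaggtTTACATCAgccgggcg
Asns: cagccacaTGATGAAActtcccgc
These lie at chr1:191183428-191183451, chr2:119351041-119351064, chr2:152344031-152344054 and chr6:7693217-7693240, with only that of Chac1 on the plus strand. The match began 110 bases before the start in Atf3, 193 in Chac1 and 23 in Asns, and in Trib3 at base 15 after the start. The cAMP response element TGACGTCA, whose match overlapped none of TGATGNAA, was found in Ppp1r15a alone, beginning 12 bases before its start (chr7:45526265-45526288, minus strand), and in 2.03% of all genes and 1.79% of windows.
Ppp1r15a: ctctccggTGACGTCAgcacagcg
The 250 bases ahead of the first start of Atf5 (chr7:44816659-44816908) and of the start of Trib3 (chr2:152344061-152344310), both on the minus strand, are given because these were the members with separate groups. They hold neither set of letters.
Atf5: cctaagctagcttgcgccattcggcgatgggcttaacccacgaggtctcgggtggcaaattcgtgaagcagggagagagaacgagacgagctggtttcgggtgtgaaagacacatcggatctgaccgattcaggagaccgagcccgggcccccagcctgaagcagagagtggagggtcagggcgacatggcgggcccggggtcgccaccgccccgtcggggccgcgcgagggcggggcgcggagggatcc
Trib3: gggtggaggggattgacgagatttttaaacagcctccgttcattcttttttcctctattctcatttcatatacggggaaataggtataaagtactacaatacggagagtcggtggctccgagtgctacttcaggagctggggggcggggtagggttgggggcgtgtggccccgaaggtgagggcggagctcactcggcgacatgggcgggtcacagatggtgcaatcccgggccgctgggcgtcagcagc
Genes with the core had values of both signs. Trib3 had a log2 fold change of 1.16, Chac1 0.25 and Asns -0.12, while Atf5, without it in either window, had 1.16. A match describes these letters only.

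Replicate 3 was the highest library of both groups for 7 of the 10 members, all but Atf5, Cebpb and Trib3. Among all tested rows this held for 34.7%. Tfam WT replicate 3 was the highest of all 6 libraries for 5 members, Atf4, Atf3, Ddit3, Asns and Ppp1r15a, and for 41.7% of tested rows. Atf4, Asns, Trib3 and Atf3 fall in the same length class, whose median there was 0.24 above the average library on the log2 scale, and they lay at 0.73, 0.28, -0.38 and 1.32. Ddit3, Chac1, Cebpb and Atf5 fall in the shortest class, with a median of 0.65, and lay at 1.13, 0.51, 0.43 and -0.45. Atf5, at 1816 bases, lies at the upper limit of that class. In longer classes, Ppp1r15a lay at 1.04 beside a class median of 0.02 in Tfam WT replicate 3, and Eif2ak1 at 0.27 beside -0.17. Ribosomal precursor RNA (Rn45s) was at 5526 RPKM there and at 782 to 1143 RPKM in the other libraries, and its part in these values was not tested. Set side by side by number, 3 members were higher in Tfam KO in all 3 pairs (Atf5, Trib3 and Chac1), as were 10.8% of tested rows, and 3 were lower in all 3 (Atf4, Asns and Ppp1r15a), as were 20.1%. With the replicate number as a block, 2 of 9 members had an unadjusted p under 0.05 and were higher, against 1.75% of tested rows, and 0 were lower, against 2.16%; the block called 0 members and 0 rows at an adjusted p of 0.05.

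Ratios within a library are free of a single scale factor between libraries, but not of trends with transcript length. Atf5 and Atf4 fall in different length classes, with medians in Tfam WT replicate 3 of 0.65 and 0.24 above the average library (log2). Atf5, at 1816 bases, lies at the upper limit of the shortest class, and Atf4 has 2019 bases. The gap between the class medians therefore does not give the trend between Atf5 and Atf4. Atf5 was at 6.34%, 6.32% and 3.86% of the Atf4 level (RPKM) in Tfam KO libraries, against 1.75%, 2.45% and 1.33% in Tfam WT libraries. The groups were separate, with means of 5.51 ± 1.42% and 1.84 ± 0.566% (SD, n = 3 each; log2 difference 1.59, exact permutation p = 0.1, the smallest that 3 against 3 allows). Trib3 was at 2.62%, 2.64% and 2.13% of Atf4 in Tfam KO, against 0.569%, 1.15% and 0.595% in Tfam WT, also separate (log2 difference 1.74, exact permutation p = 0.1). Without Tfam WT replicate 3, where Atf4 was highest, the log2 differences were 1.38 for Atf5 and 1.597 for Trib3. Over the 6 ratios computed, the adjusted p was 0.3 for both (exact permutation test, Benjamini-Hochberg). Ddit3 was at 12.9%, 12.9% and 11.2% of Atf4 in Tfam KO, against 10.6%, 11.9% and 16.8% in Tfam WT. Ppp1r15a and Asns overlapped relative to Atf4 as well. Atf5 relative to Trib3 overlapped too, at 182% to 242% in Tfam KO and 212% to 308% in Tfam WT.

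**Figure D3:**
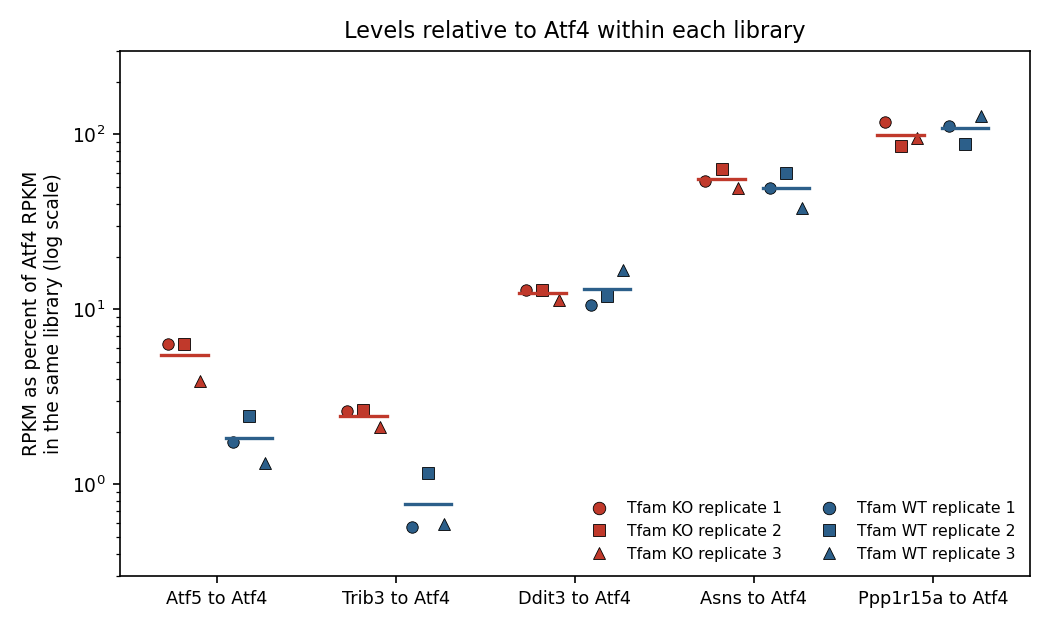
RPKM of 5 members as a percentage of the Atf4 RPKM in the same library, on a log axis, with Tfam KO left of Tfam WT; each marker is a library and each bar a mean of 3. Atf5 and Trib3 are separate between groups, and Ddit3, Asns and Ppp1r15a overlap.

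Other genes known as ATF4 targets were taken from a list of 30, of which 20 passed the filter. Of these 13 had a positive and 7 a negative log2 fold change, where 47.0% of all tested rows were positive. Their median was 0.12 beside -0.02 for all tested rows, and 0 passed the test in either direction. In 2 of the 20 the groups were separate with Tfam KO higher, against 2.18% of all tested rows, and in 0 with Tfam KO lower, against 2.36%. Without Tfam WT replicate 3, 17 were positive, beside 44.9% of all tested rows, and the median was 0.14. In that fit 4 were separate and higher in Tfam KO, against 5.42% of all tested rows, and 1 was separate and lower, against 5.90%. The median was only 0.029 without Tfam KO replicate 2 and 0.025 without Tfam WT replicate 1. Pycr1, the last enzyme of proline synthesis, was at 4.36, 4.65 and 3.26 RPKM in Tfam KO libraries, against 2.38, 2.67 and 2.64 RPKM in Tfam WT libraries. Its groups were separate (log2 fold change 0.50, SE 0.16, unadjusted p = 0.0153, limma adjusted p = 0.909). Sesn2, which encodes an inhibitor of mTORC1, was separate too, at 6.99, 6.13 and 6.30 RPKM in Tfam KO and 5.48, 4.99 and 5.90 RPKM in Tfam WT, by a log2 fold change of 0.21 (SE 0.14). Cebpg, an ATF4 partner, was at 12.9 to 14.8 RPKM in Tfam KO and 11.7 to 13.7 RPKM in Tfam WT. Mthfd2, an enzyme of mitochondrial one-carbon metabolism, was abundant in both groups, at 115 to 159 RPKM in Tfam KO and 110 to 145 RPKM in Tfam WT.

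Of the 10 targets below the filter, 9 were above 0 in some library, and 2 of these were separate with Tfam KO higher, against 4.35% of all rows above 0 and below the filter. None was separate with Tfam KO lower, against 1.94%. The 2 are named after their values were seen. Slc7a11, the cystine importer that feeds glutathione synthesis, was at 0.681, 0.698 and 0.333 RPKM in Tfam KO libraries, against 0.0943, 0.149 and 0.0521 RPKM in Tfam WT libraries. Cth, which makes cysteine from cystathionine, was at 1.53, 1.52 and 1.02 RPKM in Tfam KO, against 0.518, 0.586 and 0.611 RPKM in Tfam WT. When no filter was set, both had a limma adjusted p of 0.931, with log2 fold changes of 0.51 (SE 0.10) and 0.58 (SE 0.12). At such levels the added 1 in log2(RPKM + 1) shrinks a fold change: the ratio of group means was 5.80 for Slc7a11 and 2.37 for Cth. Ddit4, another mTORC1 inhibitor, was at 0.378 to 0.635 RPKM in Tfam KO and 0.228 to 0.522 RPKM in Tfam WT. Of the secreted factors known from mitochondrial disease, Gdf15 was at 0.262 to 0.345 RPKM in Tfam KO and 0.0482 to 0.380 RPKM in Tfam WT, and Fgf21 was listed at 0 in all libraries.

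**Figure D4:**
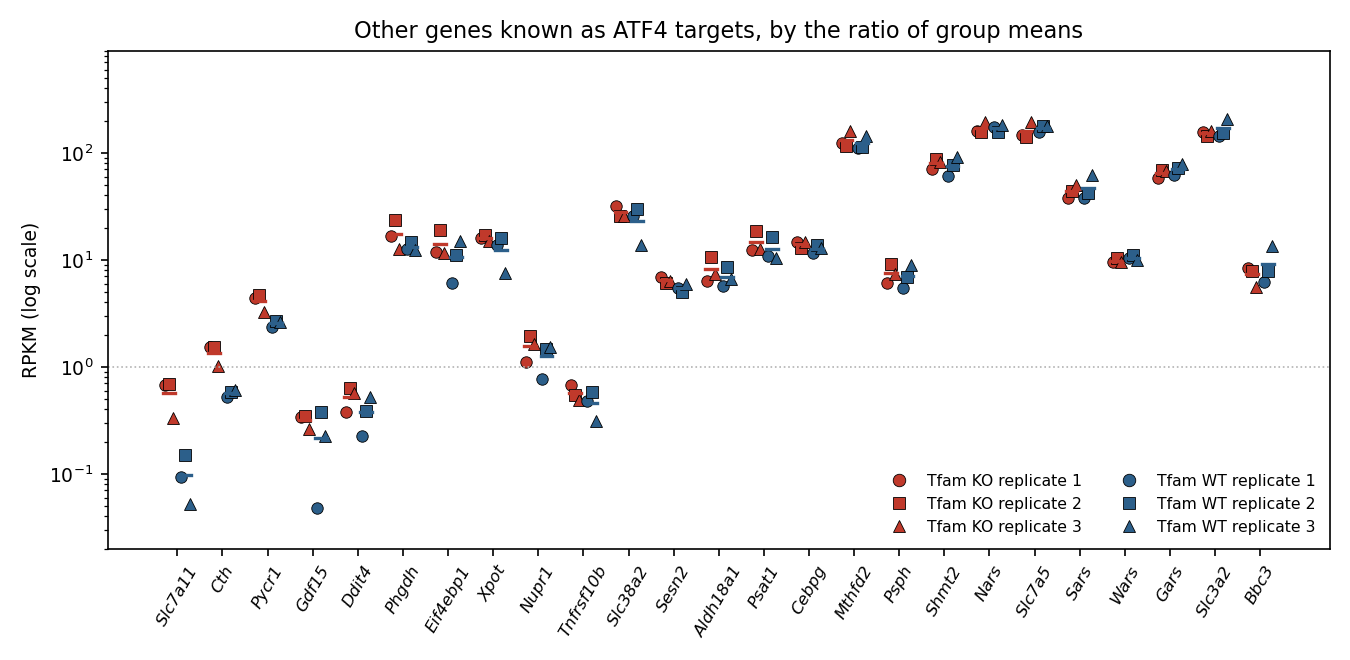
RPKM on a log axis of the 25 other ATF4 targets above 0 in every library, ordered by the ratio of group means, with Tfam KO left of Tfam WT; markers are libraries, bars are means of 3, and the dotted line is 1 RPKM. Slc7a11, Cth, Pycr1 and Sesn2 are separate between groups, and the other genes overlap.

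Chaperones and sensors of the endoplasmic reticulum, which belong to another arm of the stress response, had 21 tested rows. Of these 8 had a positive and 13 a negative log2 fold change, where 47.0% of all tested rows were positive. Their median was -0.04 beside -0.02 for all tested rows, and 0 passed the test in either direction. At an unadjusted p under 0.05 there were 0, and in 0 rows the groups were separate. Hspa5, the main chaperone of that compartment, was at 166, 137 and 186 RPKM in Tfam KO libraries, against 145, 149 and 266 RPKM in Tfam WT libraries. Its log2 fold change was -0.15 (SE 0.29), and 0.13 without Tfam WT replicate 3.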

How the data were processed

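The authors deposited one table of RPKM values with 1 column for each of the 6 libraries. A TruSeq RNA kit and a NextSeq instrument were used, per the labels' protocols. TopHat, Cufflinks and build mm9 are named in the submitters' processing notes, and the sources used here give no versions, annotation or strand setting. Of 23119 rows, 25 hold no gene name (a mean of 0.158% of the RPKM sum) and were left out.

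Rows with a mean of at least 1 RPKM over all libraries were tested in R 4.3.3 by limma 3.58.1, which was run on log2(RPKM + 1) values with its mean-variance trend, with Benjamini-Hochberg adjustment over 8302 rows at 0.05. Fold changes on this scale understate changes of low genes. The fit was also run on simulated data with independent noise for each gene and library. Those data held no trend with transcript length, so they do not show how the fit handles Tfam WT replicate 3. Members were chosen by symbol, and members, lists and tests were chosen with earlier results of these data known. From the lists of the eIF2 axis, other ATF4 targets and chaperones the text names Eif2s1, Ddit4, Sesn2, Cebpg, Hspa5 and tested genes with separate groups; others were chosen after their values were seen. Figures were drawn with matplotlib 3.10.9.

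Absolute depth is unknown. Ratios of RPKM values below 0.05 fell on steps of whole reads, allowing 0.03 in log2, for 44.4%, 80.1% and 82.5% of rows in Tfam KO replicates 1, 2 and 3 and 80.3% in Tfam WT replicate 1. That put their depth at 92.7%, 84.1%, 79.6% and 88.9% of Tfam WT replicate 2. Tfam WT replicate 3 was not resolved (21.2%).

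Both groups use the same replicate numbers. Across genes, what was left after subtracting group means correlated at 0.46, 0.17 and 0.53 between libraries numbered 1, 2 and 3. Each was above 0.1, so the numbers were taken as pairs, which no label states. Tfam KO replicate 1 and Tfam WT replicate 2 also correlated, at 0.40, above the 0.17 of the libraries numbered 2. The correlations therefore do not establish pairs. Values are from the fit without a block unless it is named. Alternatives were another pseudocount, filter, scaling, trend, weighting, the replicate block and leaving out each library. Transcript lengths and GC came from GENCODE M21 and served for the length classes and for removing trends. Promoter sequences are from RefSeq (GRCm38.p6).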

Additional observations from a re-analysis of the deposited data

How the results depend on the processing

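Over 133 values of single members under alternatives, 119 kept their direction and side of the threshold, 11 changed sign and 3 passed it. Atf5 ranged from 1.02 to 1.46 and Trib3 from 0.92 to 1.58 (log2), with limma adjusted p from 0.00101 and 0.00484 up to 0.9999. Weighting libraries called 60 genes, with Atf5 at 1.46, Trib3 at 1.58, Cebpb at 0.78 and Pycr1 among them, so 3 members and 1 other ATF4 target; the weights were 21.45 for Tfam WT replicate 1 and 0.0859 for replicate 3, and their estimation did not converge. Leaving out 1 library called 0 to 2 genes, none of them members: Mir135a-1 and Snord88c without Tfam KO replicate 2, Snord96a without Tfam KO replicate 3 and Snord67 without Tfam WT replicate 3. Signs changed for Eif2ak1 (0.13 after quantile normalization, 0.17 when each library was divided by its globin-free RPKM sum), Asns (0.065 and 0.11 under the same, 0.015 with length and GC trends removed, 0.074 with weights) and Ddit3 (0.12 with weights). With 1 library left out, Ddit3 ranged from -0.65 to 0.10, positive without Tfam WT replicate 3. Eif2ak1 ranged from -0.21 to 0.10, positive without Tfam KO replicate 2 or Tfam WT replicate 3, and Chac1 from -0.095 to 0.57, negative without Tfam KO replicate 3. That division moved the median of all rows to 0.17. The replicate block called 0 genes and 0 members and changed no call. Causes were not tested. Depth is unknown, so no floor is given for genes below 1 RPKM, such as Atf3 and Slc7a11.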

Other observations

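Adm2, which encodes a secreted peptide of the adrenomedullin family and is known to be induced through ATF4, was on none of the lists and was noticed after its value was seen. It was at 1.48, 2.30 and 2.59 RPKM in Tfam KO libraries, against 0.475, 0.781 and 0.667 RPKM in Tfam WT libraries. Every Tfam KO library lay above every Tfam WT library, with a log2 fold change of 0.91 (SE 0.19, unadjusted p = 0.00180, limma adjusted p = 0.909). It passed the filter through its Tfam KO values.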
